A study of Mus musculus with 12 samples.

Results

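The comparison set the stratum radiatum of hippocampal field CA1, called the dendritic layer here, against the stratum pyramidale of the same field, called the cell body layer. Its members were the 6 of 12 arrays whose titles place them in CA1, with 3 arrays for each layer, and both layers carried the same run number in the labels. RNA came from male mice of 6 to 8 weeks carrying the Amigo2-EGFP reporter on a C57BL/6J background. There were 3 such mice, each from its own litter, no experimental treatment was described, and the 6 CA2 arrays of the series came from the same animals. The layers were cut by infrared laser capture from frozen sections of 8 µm, about 20 caps of 5 sections went into 1 extract, and each extract gave 5 to 30 ng of RNA with an integrity number of 6.9 to 7.5. The labels number the arrays of a layer 1 to 3 without saying that the number stands for the mouse, so the p-values measure the spread between these arrays. Every allele was shared by both layers, the reporter is driven by regulatory sequence of Amigo2, and whether its fluorescence guided the capture is not given in the sources used here.

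A CA1 pyramidal neuron keeps its nucleus and most of its RNA in the cell body layer and sends its apical dendrite through the stratum radiatum, where excitatory axons from CA3 make synapses on dendritic spines. Some mRNAs are carried along microtubules into dendrites and translated there by local ribosomes, while small nucleolar RNAs and unspliced transcripts stay in the nucleus. The stratum radiatum also holds astrocytes, microglia, vessels, oligodendrocyte precursors, axons and scattered interneurons, so the captured layer is a mixture. In such bulk pieces fewer cells of a type and less RNA per cell cannot be told apart.

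Values are log2 expression as deposited, a difference is the dendritic mean minus the cell body mean, and a difference of 1 is 2-fold. A gene was called when limma's two-sided test gave a Benjamini-Hochberg adjusted p under 0.05 over all 30142 genes. The test called 12384 genes (41.1%), of which 7207 (23.9%) read higher on the dendritic arrays and 5177 (17.2%) on the cell body arrays. The median difference of all genes was 0.12. The 3 values of the layers did not overlap in 55.1% of genes (34.7% with the dendritic and 20.4% with the cell body values higher), so a call or a gap between layers was common here. Calls of at least 2-fold were fewer (6.15%), with 1000 genes higher (3.32%) and 853 lower (2.83%). Without the arrays numbered 2 in both layers 8136 genes were called, and leaving out any other array or number kept the count within 1.5 times of that given.

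The direction of small differences moved with level and with the scale of the arrays. With genes ranked by level into 10 equal bins, 97.6% of the calls in the dimmest bin were higher in the dendritic layer and the median difference there was 0.18, while 31.4% of those in bin 9 were higher, with a median of -0.21. The 23 antigenomic background features, which match no mouse transcript, read 0.19 higher on the dendritic arrays and the 155 external RNA control features 0.11 higher. The 4 hybridization controls, added in equal amounts to each array, read 0.60 higher (13.07 ± 0.04 against 12.47 ± 0.03, SD, n = 3 arrays each), and the 4 poly-A controls, added to the RNA before amplification, read 2.82 lower (8.07 ± 0.49 against 10.89 ± 0.20). Among 1773 olfactory, vomeronasal and taste receptor genes, which hippocampal tissue hardly expresses, 354 were called higher (20.0%, against 23.9% of all genes). In this class 8 were called lower (0.451%, against 17.2%), and the median was 0.18. A rise of under 0.19 therefore lay within what the antigenomic features showed, whose dendritic array means ran from 4.49 to 4.81. The 5222 named negative control features read 0.01 higher on the dendritic arrays (5.07 against 5.06). Setting the hybridization controls equal moves every difference by -0.60, so that any rise smaller than that turns into a fall. Among the genes named below this scaling also ends the calls of Camk2a, Cox6a1, Cox8a, Cyp51, Dpp10, Fau, Grn, Hspb1, Htr7, Kcnd3, Kcnip1, ND3, Rpl35, Rpl4, Rps15, Rps20 and Trak2, and it brings Eif2s3x, Kif5b, Kif5c, Malat1, Amigo2 and Btg2, not called on the deposited scale, and Rps18, called higher there, past the threshold as falls. All 5 scalings tried lowered the median difference over all genes. The poly-A controls and the 1324 named positive controls, which read 0.19 lower on the dendritic arrays, were not set equal. Either would move every difference upward. Named rises and group medians that changed sign are stated.

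**Figure D1:**
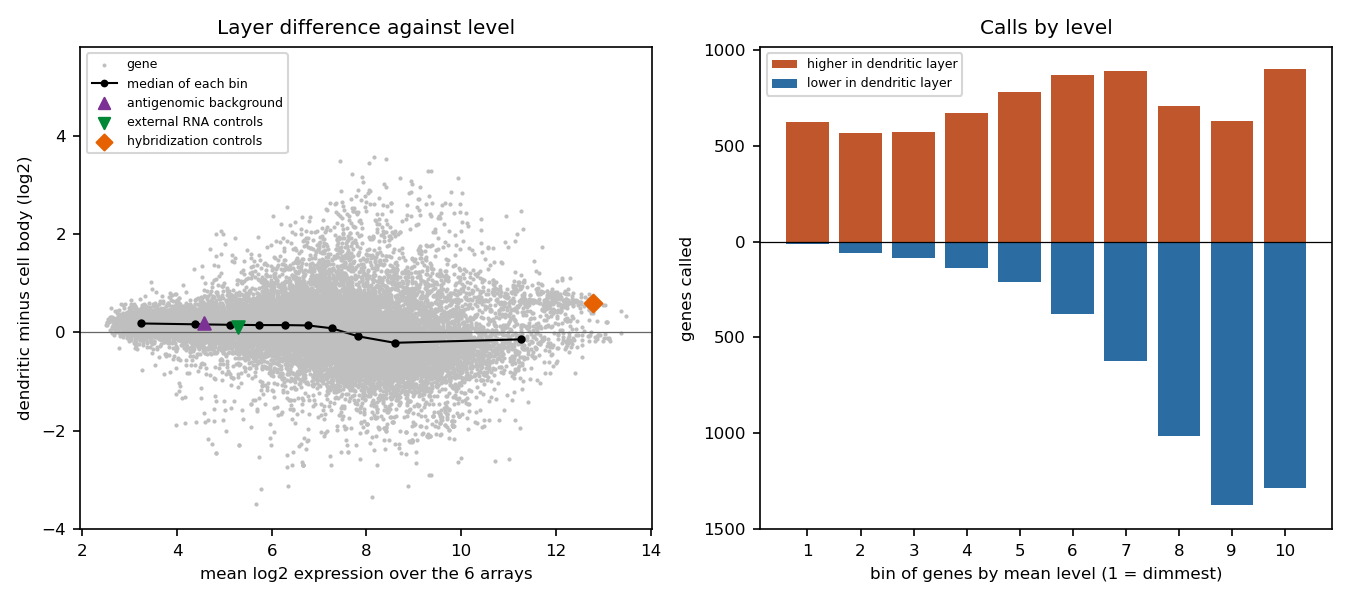
The left plot sets each gene's layer difference (log2) against its mean level over the 6 arrays, with the median of each of 10 level bins in black at the middle of its range and 3 classes of control features as coloured symbols, and the right plot gives the number of genes called in each bin, higher above and lower below the zero line. Dim genes scatter around a small positive difference, the medians turn negative from bin 8 on, and the hybridization controls sit at 0.60.

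Markers of the cell types of the layers differed widely. Gfap, the intermediate filament of astrocytes, read 10.92, 10.85 and 11.04 on the dendritic arrays and 7.51, 7.73 and 7.72 on the cell body arrays, and Neurod6, a transcription factor of pyramidal neurons, read 9.69, 9.90 and 9.59 against 12.22, 12.38 and 12.29. Called higher in the dendritic layer were 19 of 19 astrocyte, 18 of 18 microglia, 16 of 16 endothelial, 14 of 14 oligodendrocyte, 10 of 10 oligodendrocyte precursor, 11 of 12 pericyte and 12 of 12 fibroblast markers, against 23.9% of all genes. The mean level of the astrocyte markers was 9.82 to 9.89 on the dendritic and 7.90 to 7.93 on the cell body arrays, that of the microglia markers 9.06 to 9.15 and 6.79 to 6.83, and that of the endothelial markers 8.45 to 8.64 and 6.62 to 6.71. Of 12 CA1 pyramidal neuron markers 9 were called lower (75%, against 17.2% of all genes) and 2 higher (16.7%). Their mean levels were 7.97 to 8.19 on the dendritic and 9.33 to 9.36 on the cell body arrays. The part of these cell types in the differences described below was not tested.

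The other genes were taken by a rule: called, not overlapping between layers, in none of the astrocyte, microglia, endothelial, oligodendrocyte, oligodendrocyte precursor, pericyte or CA1 lists, and either among the 15 largest rises and 15 largest falls or among the members of a gene list with the smallest p. The fibroblast and interneuron lists were not left out, so Mgp, a fibroblast marker, and Ndnf, an interneuron marker, stand among the largest rises. Members of a list that are named beside these were picked after their values were seen.

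The 15 largest rises of this kind lay between 2.84 and 3.56. Slc7a11, the cystine-glutamate exchanger, read 9.84, 9.94 and 10.06 on the dendritic arrays and 6.37, 6.49 and 6.29 on the cell body arrays, a 11.8-fold rise (log2 3.56, SE 0.09, adjusted p = 8.87e-07). Igfbp5, a binding protein of insulin-like growth factors, read 9.83, 9.63 and 9.84 against 6.39, 6.33 and 6.27 and rose 10.8-fold (adjusted p = 8.87e-07). In both genes the layers stood far apart beside the small spread within each. Mgp, matrix Gla protein, was less even, with 10.91, 9.33 and 10.32 on the dendritic and 7.15, 6.38 and 6.44 on the cell body arrays and a rise of 3.53 (SE 0.38, adjusted p = 1.80e-04). Ndnf, which neurogliaform interneurons secrete, read 9.28, 8.65 and 9.59 against 5.75, 5.43 and 5.88 (rise of 3.49, SE 0.23).

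Aldh1a1, a retinaldehyde dehydrogenase, read 10.34, 10.26 and 10.20 in the dendritic and 7.11, 7.02 and 7.28 in the cell body layer (rise of 3.13, adjusted p = 8.87e-07). Scd1, the stearoyl-CoA desaturase that makes monounsaturated fatty acids, rose by 3.07 and Maob, the monoamine oxidase of astrocytes, by 2.88. Rorb, a nuclear receptor of the retinoid-related orphan family, read 9.90, 9.80 and 9.97 against 7.0, 7.08 and 6.52 and rose by 3.02 (SE 0.14, adjusted p = 4.13e-06). Prex2, a Rac guanine nucleotide exchange factor, rose by 3.01, the calcium-binding protein S100a1 by 2.84 and the interferon-induced membrane protein Ifitm3 by 2.84. Ly6c2 rose by 2.95, but it has a close copy in Ly6c1, an endothelial marker that rose by 2.38, and the arrays may not separate the pair. The remaining rises were Scrg1 (3.27), Clec2d (2.87) and Cmtm5 (2.84).

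**Figure D2:**
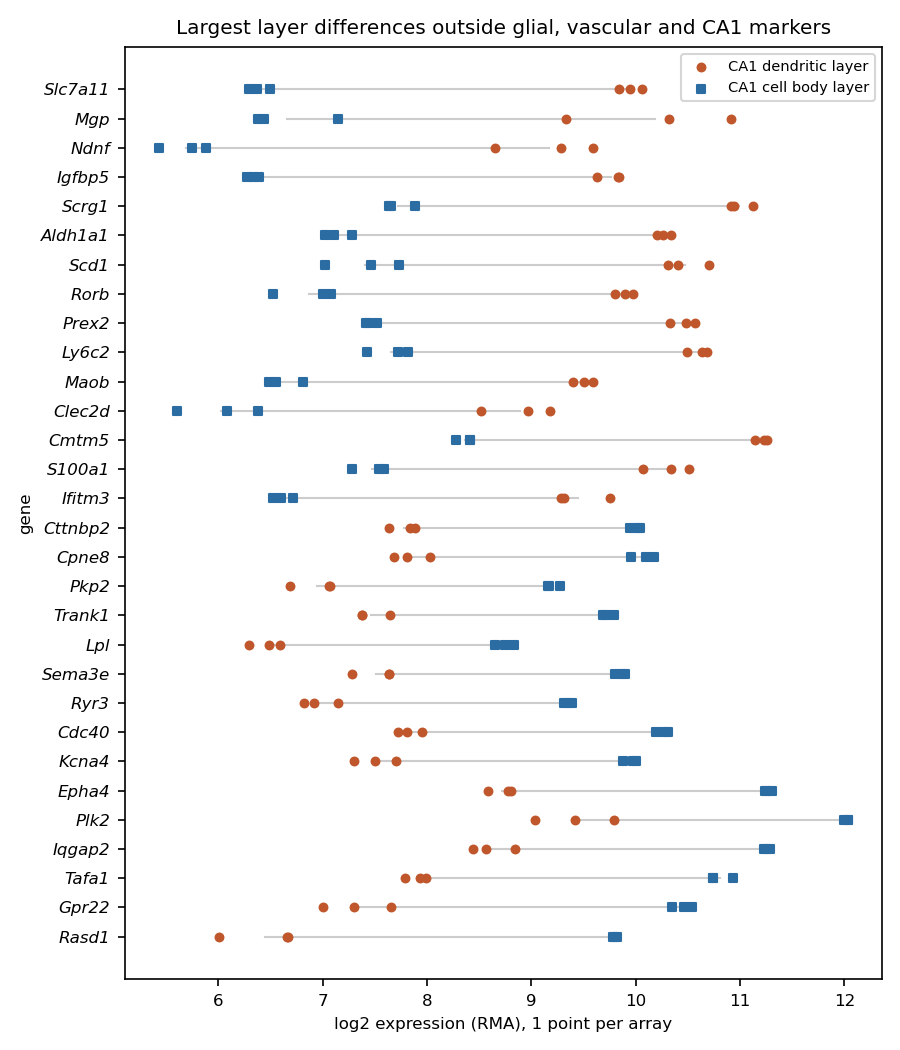
Each row is a gene and each point an array, on the log2 scale, for the 15 largest rises (top) and the 15 largest falls (bottom) outside the glial, vascular and CA1 marker lists. The layers do not overlap in any row. The genes whose dendritic arrays spread more than their cell body arrays include Mgp, Ndnf, Plk2, Gpr22 and Rasd1. This is general here: the median SD over all genes was 0.129 on the dendritic and 0.075 on the cell body arrays.

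The 15 largest falls ran from -3.35 to -2.22 on the log2 scale. Rasd1, a Ras-related protein whose gene responds to glucocorticoids and activity, read 6.67, 6.01 and 6.66 on the dendritic arrays and 9.80, 9.78 and 9.82 on the cell body arrays, a 10.2-fold fall (SE 0.17 on the log2 scale, adjusted p = 4.97e-06). Gpr22, an orphan G protein-coupled receptor, read 7.30, 7.0 and 7.65 against 10.35, 10.54 and 10.46 and fell by 3.13. Plk2, an activity-induced polo-like kinase that acts on spine proteins, read 9.42, 9.03 and 9.79 against 12, 12.03 and 12.03, a fall of 2.61 (SE 0.17, adjusted p = 1.52e-05). The cell body arrays of these 3 genes lay close together and all above the dendritic arrays, which were more widely spread.

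Epha4, an ephrin receptor at synapses, read 8.78, 8.58 and 8.80 in the dendritic and 11.31, 11.24 and 11.26 in the cell body layer and fell by 2.55, and Sema3e, a secreted semaphorin, fell by 2.34. Kcna4, the A-type potassium channel subunit Kv1.4, fell by 2.45, from 10.00, 9.88 and 9.97 to 7.50, 7.30 and 7.70. Ryr3, a ryanodine receptor that releases calcium from the endoplasmic reticulum, fell by 2.39. Tafa1, a small secreted protein, fell by 2.90, the scaffold protein Iqgap2 by 2.64 and the lipoprotein lipase Lpl by 2.29. Cdc40, a splicing factor, fell by 2.43, Trank1 by 2.26, the desmosomal plaque protein Pkp2 by 2.26, Cpne8 by 2.23 and Cttnbp2, a cortactin-binding protein of dendritic spines, by 2.22. All 30 genes stayed called with the same sign with any 1 array or any 1 replicate number left out. They were picked as called, not overlapping and largest on these same arrays, which favours that outcome, so it is no independent check. Of the 15 rises and 15 falls, Slc7a11, Mgp, Scrg1, Aldh1a1, Scd1, Plk2, Iqgap2, Epha4, Gpr22 and Tafa1 were also the largest among the bright genes, those with a mean of at least 8.14.

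Scaffolds and kinases of the postsynaptic density, the protein lattice under excitatory synapses, were called higher in 17 of 33 measured members (51.5%, against 23.9% of all genes), lower in 7 (21.2%, against 17.2%) and not called in 9, with a median difference of 0.33 that becomes -0.26 when the hybridization controls are set equal. Shank1, a master scaffold whose mRNA is known from dendrites, read 11.33, 11.36 and 11.29 on the dendritic arrays and 9.49, 9.47 and 9.60 on the cell body arrays, a 3.5-fold rise (SE 0.07 on the log2 scale, adjusted p = 2.05e-06). Ppp1r9b (spinophilin), which anchors protein phosphatase at spines, read 11.93, 11.89 and 11.77 against 10.15, 9.99 and 10.25 and rose by 1.73. Agap2, an Arf GTPase-activating protein, rose by 1.43, and Ddn, dendrin, by 1.38. The kinase Camk2a read 12.92, 13 and 12.96 against 12.27, 12.24 and 12.23, a rise of 0.71 (SE 0.07).

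Paralogs within these families went opposite ways. Dlg4 (PSD-95) rose by 0.92 while Dlg3 (SAP102) fell by 1.25, from 9.52, 9.42 and 9.47 to 8.24, 8.12 and 8.31 (SE 0.08, adjusted p = 1.37e-05). Homer2 rose by 1.16 and Homer1 fell by 0.98. Among the neurabins Ppp1r9b rose, as given above, and Ppp1r9a fell by 0.62. Camk2a rose and Camk2d rose by 0.88, while Camk2b fell by 0.33 (adjusted p = 0.0096; 0.0722 without the arrays numbered 3). Baiap2, the insulin receptor substrate IRSp53 that bends spine membranes, fell by 1.36 (adjusted p = 5.83e-05), and the calmodulin-binding protein Nrgn fell by 0.84. Whether paralogs differed from each other was not tested.

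Glutamate receptors split by subunit. Of 30 measured receptor and auxiliary genes 12 were called higher (40%, against 23.9% of all genes), 14 lower (46.7%, against 17.2%) and 4 not called. The median of 0.14 turns negative when the antigenomic background or the hybridization controls are set equal, and is -0.012 without the arrays numbered 3. The NMDA receptor subunits Grin2a and Grin2b fell: Grin2a read 9.60, 9.41 and 9.56 on the dendritic and 11.48, 11.41 and 11.42 on the cell body arrays (fall of 1.91, SE 0.08, adjusted p = 2.23e-06), and Grin2b fell by 1.85. The AMPA receptor subunits Gria1, Gria2 and Gria3 fell by 0.98, 1.57 and 1.47. Grm5, a group I metabotropic receptor of postsynaptic membranes, read 9.08, 9.05 and 9.22 against 10.57, 10.60 and 10.55 and fell by 1.46. On the other side stood Grm3, a group II metabotropic receptor that is abundant in astrocytes, which read 10.49, 10.66 and 10.54 against 8.54, 8.84 and 8.83 and rose by 1.83 (adjusted p = 7.16e-06), and Grin2c, which rose by 1.08. Auxiliary subunits of AMPA receptors also divided, with Cacng4, Cacng7 and Cnih2 higher by 0.99, 1.07 and 0.92 and Cacng3 and Cnih3 lower by 1.45 and 0.86.

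**Figure D3:**
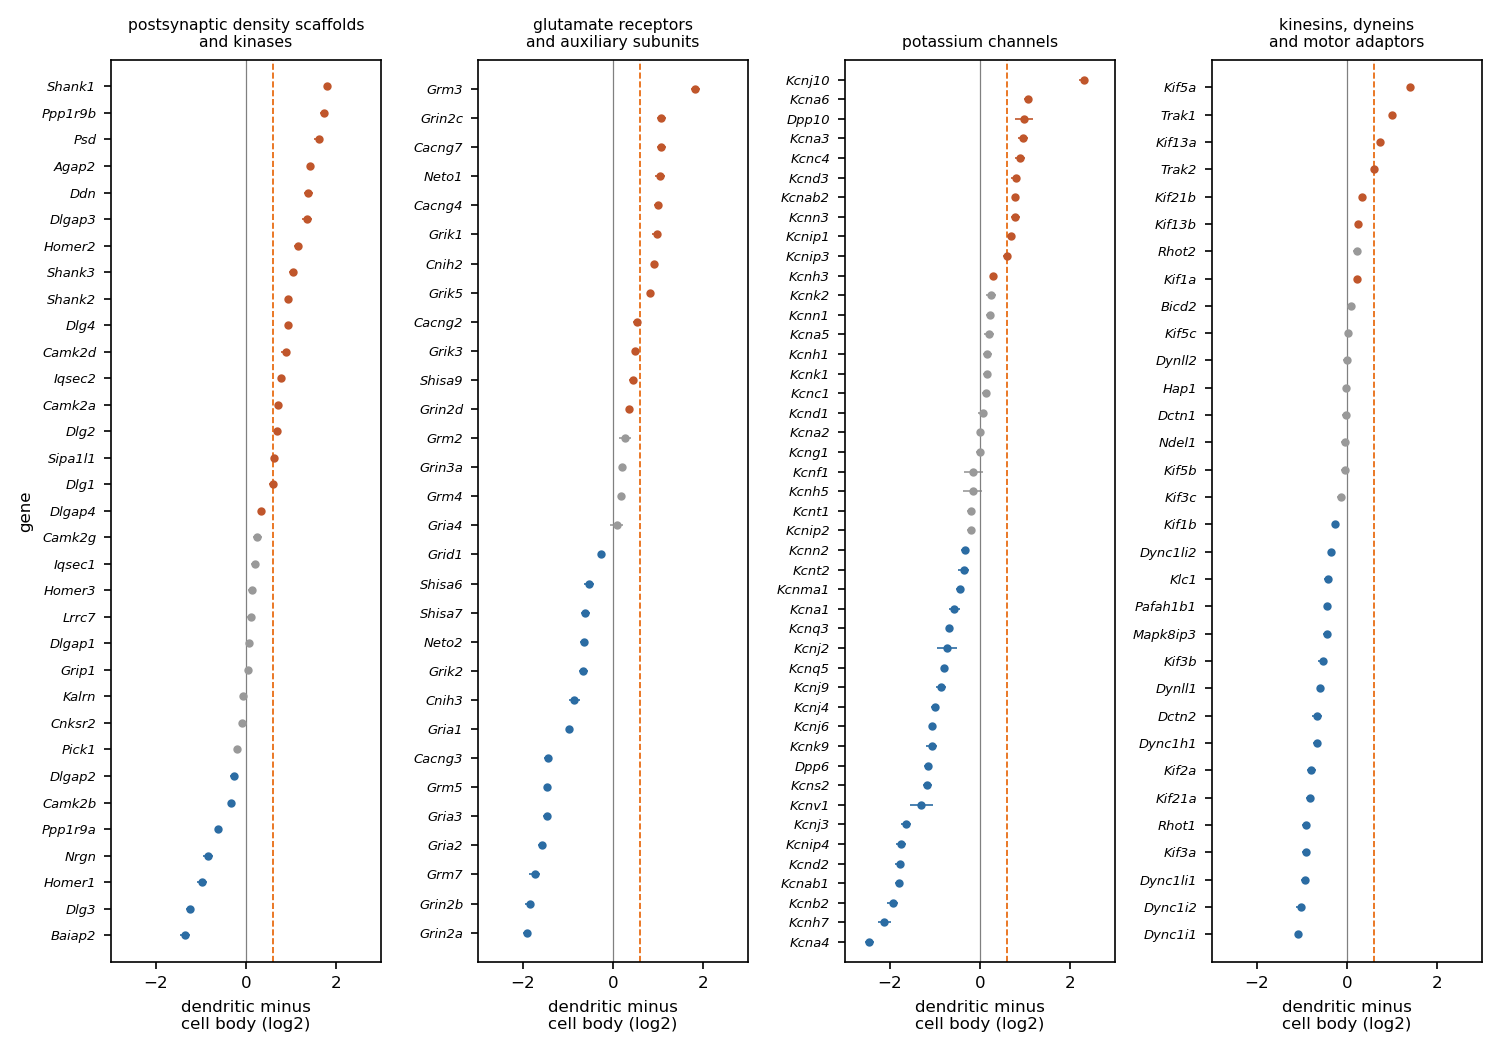
Each panel lists the measured members of a gene family by their layer difference (log2, point) with its SE (bar), in red where called higher, in blue where called lower and in grey where not called, and the dashed line marks the 0.60 of the hybridization controls. Shank1 and Ppp1r9b lead the scaffolds while Baiap2 and Dlg3 lie at the other end, and Grin2a, Grin2b, Kcna4 and Dync1i1 are at or near the foot of their panels.

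Potassium channels, which set the resting potential and the shape of spikes and dendritic signals, were called lower in 21 of 45 measured members (46.7%, against 17.2% of all genes) and higher in 11 (24.4%, near the 23.9% of all genes), with a median of -0.20. Kcnd2 (Kv4.2), the main A-type channel of CA1 dendrites, read 9.77, 9.47 and 9.52 in the dendritic and 11.46, 11.29 and 11.35 in the cell body layer, a fall of 1.78 (SE 0.10, adjusted p = 7.11e-06). Its partners Kcnip4 and Dpp6 fell by 1.75 and 1.15, while Kcnip1, Kcnd3 and Dpp10 rose by 0.68, 0.79 and 0.98. The auxiliary subunit Kcnab1 fell by 1.79, from 10.40, 10.27 and 10.41 to 8.59, 8.47 and 8.64. The GIRK subunits Kcnj3, Kcnj6 and Kcnj9, which carry inhibitory currents gated by G proteins, fell by 1.64, 1.05 and 0.86. Kcnj10 (Kir4.1), the inward rectifier of astrocytes, read 10.13, 9.97 and 9.87 against 7.81, 7.61 and 7.64 and rose by 2.30 (adjusted p = 2.29e-06), and Kcna6 rose by 1.06.

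Sodium, calcium and HCN channels were called lower in 17 of 25 (68%, against 17.2% of all genes) and higher in 3 (12%, against 23.9%). Their median was -0.49. Scn3b, a sodium channel beta subunit, read 8.89, 8.53 and 8.84 against 10.96, 10.88 and 10.92 and fell by 2.17 (adjusted p = 4.26e-06). Cacna1e, the R-type calcium channel, read 8.83, 8.45 and 8.71 against 10.82, 10.81 and 10.78 and fell by 2.14. Cacnb2 fell by 1.74 and the neuronal sodium channel Scn2a by 1.32. Hcn2, a channel of the hyperpolarization-activated current, went the other way with 9.02, 8.85 and 9.18 in the dendritic and 8.10, 7.71 and 7.85 in the cell body layer (rise of 1.13, SE 0.12, adjusted p = 2.08e-04).

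GABA receptor genes, which pyramidal neurons use for inhibition, were called lower in 10 of 15 (66.7%, against 17.2% of all genes). They were called higher in 2 (13.3%, against 23.9%), with a median of -0.58. Gabra5, the subunit of extrasynaptic receptors in CA1 dendrites, read 10.50, 10.41 and 10.27 against 11.79, 11.79 and 11.71 and fell by 1.37 (adjusted p = 1.08e-05). Gabrb2 and Gabra4 fell by 1.38 and 1.13. Gabrg1 was apart from these, reading 8.27, 8.64 and 8.55 in the dendritic and 6.22, 6.37 and 6.23 in the cell body layer (rise of 2.21, SE 0.11, adjusted p = 4.48e-06).

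Receptors for neuromodulators and peptides were called lower in 16 of 34 (47.1%, against 17.2% of all genes) and higher in 6 (17.6%, against 23.9%). Their median was -0.18, and 10 of the 16 fell at least 2-fold (2.83% of all genes were called and fell this far). The somatostatin receptor Sstr4 read 9.94, 9.92 and 9.80 against 11.30, 11.26 and 11.30 (fall of 1.40, adjusted p = 5.84e-06). The serotonin receptor Htr1a fell by 1.17 and the dopamine receptor Drd5 by 1.15. The muscarinic receptors Chrm1 and Chrm3 fell by 1.15 and 1.72. Htr7 rose by 0.61 (adjusted p = 8.47e-04).

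Second messenger genes were called lower in 15 of 35 (42.9%, against 17.2% of all genes) and higher in 10 (28.6%, against 23.9%), with a median of -0.19. The calmodulin-dependent phosphodiesterase Pde1a read 8.82, 8.66 and 8.72 against 10.40, 10.51 and 10.44 and fell by 1.72 (adjusted p = 3.25e-06). The G protein subunit Gnb5 fell by 1.18. Gng7 read 11.55, 11.38 and 11.31 against 9.80, 9.69 and 9.63 and rose by 1.71, Gnai2 rose by 1.25 and the calcium-stimulated adenylyl cyclase Adcy1 by 1.26, whereas its relatives Adcy8 and Adcy9 fell by 1.11 and 1.28.

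Synaptic adhesion genes, whose products bridge the cleft, were called lower in 27 of 46 (58.7%, against 17.2% of all genes). They were called higher in 9 (19.6%, against 23.9%), with a median of -0.46. Flrt2 read 8.10, 7.85 and 8.04 in the dendritic and 9.71, 9.70 and 9.67 in the cell body layer and fell by 1.70 (adjusted p = 4.96e-06). Slitrk3, Adgrl2 (latrophilin 2) and Tenm2 (teneurin 2) fell by 1.43, 1.42 and 1.41. The leucine-rich repeat family divided by member: Lrrtm1 and Lrrtm2 fell by 1.74 and 1.45, while Lrrtm3 rose by 1.17 and Lrrtm4 read 7.07, 7.20 and 7.61 against 5.93, 5.86 and 5.76, a rise of 1.44 (SE 0.14, adjusted p = 1.02e-04). The cadherin Cdh9 rose by 1.13.

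Guidance ligands and receptors were called lower in 19 of 51 (37.3%, against 17.2% of all genes) and higher in 16 (31.4%, against 23.9%). Their median of -0.04 is 0.010 without the arrays numbered 1. At least 2-fold were 11 of the falls (2.83% of all genes fell this far) and 4 of the rises (3.32% of all genes rose this far). Beside Epha4, the receptors Epha3, Epha5 and Epha6 fell by 1.68, 1.49 and 1.67, and the ligand Slit3 read 8.15, 8.01 and 8.02 against 9.76, 9.68 and 9.59 and fell by 1.62. Plxnb1, a semaphorin receptor, read 8.84, 8.69 and 8.65 against 6.97, 7.01 and 7.04 and rose by 1.72 (adjusted p = 3.45e-06). Sema6a rose by 1.48, Sema3c by 1.74 and Ephb1 by 1.45.

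Matrix and proteoglycan genes were called higher in 27 of 38 (71.1%, against 23.9% of all genes) and lower in 3 (7.89%, against 17.2%). Their median of 0.52 is -0.07 with equal hybridization controls. Fn1, fibronectin, read 9.13, 8.85 and 8.91 in the dendritic and 6.64, 6.66 and 6.82 in the cell body layer, a 4.78-fold rise (adjusted p = 2.83e-06). Sparc, a matrix protein of vessels and glia, rose by 2.08, the laminin subunit Lama2 by 2.01 and tenascin C (Tnc) by 1.68. Gpc4, a glypican that astrocytes and neurons release, read 7.58, 7.10 and 7.28 against 8.90, 9.13 and 8.98 and fell by 1.68 (adjusted p = 3.36e-05), and Tnr, tenascin R, fell by 0.46.

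Regulators of spine actin were called lower in 16 of 29 (55.2%, against 17.2% of all genes) and higher in 5 (17.2%, against 23.9%). Their median was -0.33. Wasf1 (WAVE1), which turns on actin branching, read 9.31, 9.13 and 9.29 against 11.02, 10.96 and 10.96 and fell by 1.74 (adjusted p = 3.33e-06). Cap2, a cyclase-associated actin regulator, fell by 1.21 and Wasl (N-WASP) by 1.07. Myo6, a minus-end directed myosin, read 9.19, 9.38 and 9.40 in the dendritic and 7.12, 7.16 and 7.11 in the cell body layer, a 4.57-fold rise (SE 0.08 on the log2 scale, adjusted p = 1.49e-06).

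Motor genes were called lower in 16 of 32 (50% of them, against 17.2% of all genes) and higher in 7 (21.9%, near the 23.9% of all genes), with a median of -0.20. Kif5a, a kinesin heavy chain that carries dendritic cargo, read 11.57, 11.56 and 11.58 against 10.27, 10.07 and 10.15 and rose by 1.41 (SE 0.08, adjusted p = 6.98e-06), while its paralogs Kif5b and Kif5c differed by -0.05 (adjusted p = 0.572) and 0.03 (adjusted p = 0.725). The adaptor Trak1, which links kinesin to mitochondria, rose by 1.01 and Trak2 by 0.61. Among dynein subunits Dync1i1 read 7.33, 7.31 and 7.37 against 8.44, 8.37 and 8.42 (fall of 1.07, adjusted p = 1.38e-05), and Dync1i2, Dync1li1 and Dync1h1 fell by 1.03, 0.93 and 0.67.

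Among 24 tubulins, microtubule proteins and neurofilaments 14 were called lower (58.3%, against 17.2% of all genes) and 4 higher (16.7%, against 23.9%). Their median was -0.34. Map2, the microtubule protein of dendrites, read 11.66, 11.80 and 11.67 in the dendritic and 10.68, 10.73 and 10.66 in the cell body layer and rose by 1.02 (SE 0.07, adjusted p = 2.69e-05). Tubb2b rose by 1.42. Stmn4, a tubulin-binding stathmin, fell by 1.08, Tuba4a by 0.62 and the neurofilament gene Nefm by 0.91.

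Synaptic vesicle genes, whose products act in axon terminals, were called lower in 16 of 29 (55.2%, against 17.2% of all genes). They were called higher in 6 (20.7%, against 23.9%), with a median of -0.33. Sv2b read 9.49, 9.09 and 9.54 against 11.21, 11.18 and 11.19 and fell by 1.82 (adjusted p = 1.67e-05), and Sh3gl2, endophilin A1, fell by 1.39. Rph3a, rabphilin, read 9.07, 9.0 and 9.21 against 7.68, 7.59 and 7.61 and rose by 1.47 (adjusted p = 6.98e-06), and the complexin Cplx2 rose by 1.11.

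**Figure D4:**
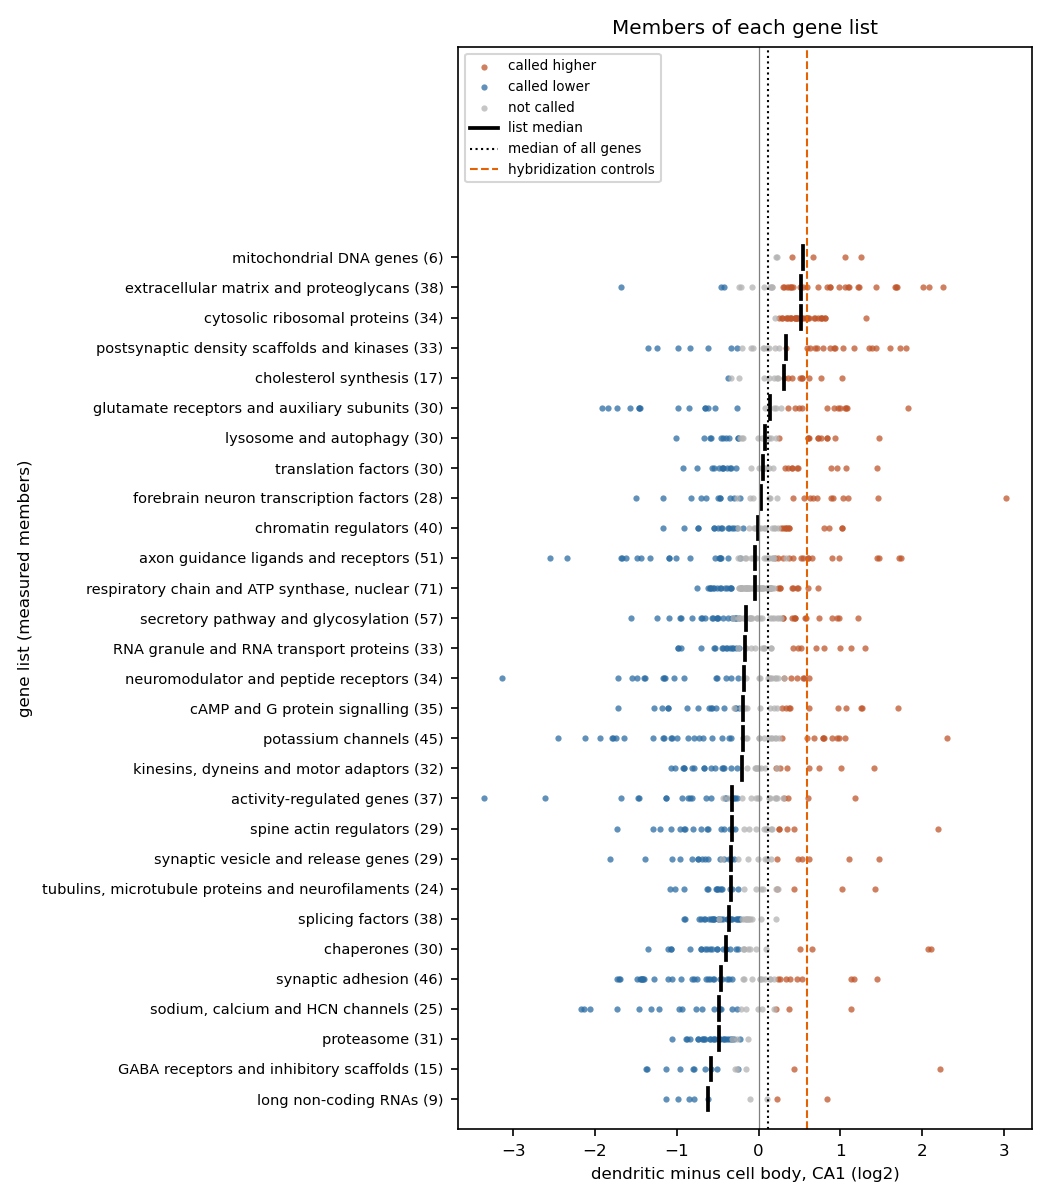
Each row is a gene list with its number of measured members, each point a member's layer difference (log2), the black bar the list median, the dotted line the 0.12 of all genes and the dashed line the 0.60 of the hybridization controls. Ribosomal proteins and proteasome subunits form tight clusters on opposite sides of the dotted line, while channels, receptors and guidance genes spread over more than 3 log2 units.

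Genes of the cytosolic ribosome moved together. Of 79 ribosomal protein genes 34 had a feature with a single symbol, 33 of these were called higher (97.1%, against 23.9% of all genes), 1 was not called and 0 were lower, and their differences ran from 0.20 to 1.31. The median of 0.51 becomes -0.08 when the hybridization controls are set equal, and it stays positive, at 0.33 to 0.53, under the other 4 scalings. Rps18 is no longer called when the external or the background controls are set equal (adjusted p = 0.066 and 0.528), nor are Rpl38 and Rps10 with equal background controls (0.0543 and 0.0776). These are bright genes, with a median level of 10.28. Rpsa, a small-subunit protein that is also known as a laminin receptor, read 10.59, 10.64 and 10.61 on the dendritic and 9.38, 9.27 and 9.27 on the cell body arrays (rise of 1.31, SE 0.07, adjusted p = 6.96e-06). Rps15 read 12.59, 12.65 and 12.68 against 11.85, 11.91 and 11.85 and rose by 0.77, Rps20 rose by 0.76 and Rpl4 by 0.69. A further 206 features carry names of ribosomal protein pseudogenes, whose sequence is close to that of the expressed genes. Of these 188 were called higher (against 23.9% of all genes) and 0 lower (against 17.2%), with a median of 0.64. Their signal cannot be told apart from that of the genes, so they are no separate check.

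Translation factors did not share this pattern, with 10 of 30 called higher (33.3%, against 23.9% of all genes) and 12 lower (40%, against 17.2%). Their median of 0.05 is negative under 3 of the 5 scalings (equal external, background or hybridization controls). Eef2, the factor that moves the ribosome by a codon, read 12.28, 12.21 and 12.26 in the dendritic and 10.90, 10.69 and 10.82 in the cell body layer, a 2.73-fold rise (SE 0.08 on the log2 scale, adjusted p = 6.98e-06). Eif3f, a subunit of initiation factor 3, read 10.18, 10.16 and 10.22 against 9.10, 9.11 and 9.15 and rose by 1.07, and the poly(A)-binding protein Pabpc1 rose by 0.88. Eif5b, which joins the ribosomal subunits, read 9.52, 9.52 and 9.69 against 10.48, 10.58 and 10.43 and fell by 0.92 (adjusted p = 7.74e-05), and the helicase Eif4a1 fell by 0.75.

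Many ribosomal protein mRNAs begin with a cytosine and a run of pyrimidines, the start motif through which their translation is controlled, so the windows around the annotated starts were read. The motif searched was a C followed by at least 4 bases of C or T on the coding strand, beginning within 3 bases of the start. It was in 10 of 29 ribosomal protein genes with a promoter entry, in 4 of 21 translation factors, in 13.3% of the 17970 tested genes with a promoter entry and in 11.5% of the 32851 RefSeq promoters of the table. The windows of 30 bases below (RefSeq, GRCm38.p6, the gene's own strand) carry it in capitals. In all 6 the run begins at the annotated start, and it differs in length.
Fau, chr19:6057937-6057966: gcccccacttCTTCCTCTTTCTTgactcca
Rpl35, chr2:39005112-39005141: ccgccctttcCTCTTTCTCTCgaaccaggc
Rpl38, chr11:114668570-114668599: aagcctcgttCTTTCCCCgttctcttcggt
Rps10, chr17:27635225-27635254: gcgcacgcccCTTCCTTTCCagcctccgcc
Rps18, chr17:33955646-33955675: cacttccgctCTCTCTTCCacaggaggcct
Eif3f, chr7:108934405-108934434: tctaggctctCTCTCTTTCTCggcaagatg
These 6 genes were called higher, with Fau at 0.62, Rpl35 at 0.68, Rpl38 at 0.59, Rps10 at 0.55, Rps18 at 0.33 and Eif3f at 1.07. With equal hybridization controls Rpl38, Rps10 and Rps18 turn negative. The 6 were picked from the genes with the motif after their values were seen, and of the 4 translation factors with it 2 were called higher, while Eif3b was called lower (fall of 0.34, adjusted p = 0.0346; 0.0518 to 0.155 in the 7 of 9 fits with arrays left out that ended the call) and Eif2s3x was not called (0.07, adjusted p = 0.534). The ribosomal protein genes were called higher with the motif (10 of 10) and without it (19 of 19). Over the 17970 genes with a promoter entry, 26.5% of those with the motif and 24.6% of those without it were called higher.

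Proteins that bind or carry mRNA were called lower in 15 of 33 (45.5%, against 17.2% of all genes). They were called higher in 8 (24.2%, near the 23.9% of all genes), with a median of -0.17. Samd4b, a Smaug-type repressor of translation, read 9.78, 9.38 and 9.62 against 8.28, 8.26 and 8.33 and rose by 1.30 (adjusted p = 4.75e-05). Celf4 rose by 1.13 and Pum2, a pumilio repressor, by 0.99. Tia1, a stress granule protein, read 7.69, 7.71 and 7.88 against 8.72, 8.78 and 8.75 and fell by 0.99, and the fragile X gene Fmr1 fell by 0.44.

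Proteasome subunits and splicing factors held no called rise. Of 31 proteasome subunits 28 were called lower (90.3%, against 17.2% of all genes) and 0 higher, with a median of -0.49. Psmc2, an ATPase of the regulatory particle, read 8.76, 8.71 and 9.02 against 9.87, 9.93 and 9.85 (fall of 1.05, SE 0.10, adjusted p = 8.13e-05), and Psmd12, Psmd14 and Psmd6 fell by 0.68, 0.84 and 0.88. Of 38 splicing factors 26 were called lower (68.4%, against 17.2% of all genes), 12 were not called and 0 were higher, with a median of -0.37. Sf3b1, a core protein of the U2 particle, read 9.61, 9.79 and 9.87 against 10.65, 10.71 and 10.65 and fell by 0.91 (adjusted p = 9.86e-05), and Sf3a3, Sf3b2 and Srsf10 fell by 0.90, 0.70 and 0.66.

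Chaperones were called lower in 19 of 30 (63.3%, against 17.2% of all genes) and higher in 4 (13.3%, against 23.9%), with a median of -0.40. Dnajb5 read 7.87, 7.79 and 7.84 against 9.18, 9.18 and 9.19 and fell by 1.35, and Dnaja2 fell by 1.08. Small heat shock proteins were among the 4 called higher: Cryab read 10.52, 10.29 and 10.69 in the dendritic and 8.57, 8.28 and 8.33 in the cell body layer (rise of 2.11, adjusted p = 8.88e-06), Hspb8 rose by 2.07 and Hspb1 by 0.65.

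Activity-regulated genes were called lower in 20 of 37 (54.1%, against 17.2% of all genes) and higher in 4 (10.8%, against 23.9%), with a median of -0.32. Beside Rasd1 and Plk2, the neuronal pentraxin Nptx2 read 7.55, 7.43 and 7.46 against 8.17, 8.33 and 8.44 and fell by 0.83 (adjusted p = 1.86e-04), and the immediate early genes Egr1, Npas4 and Nr4a1 fell by 1.13, 1.46 and 1.14, the last with layers that overlapped. Jun, a subunit of AP-1, read 8.14, 7.94 and 8.24 against 6.77, 6.92 and 7.11 and rose by 1.17 (SE 0.11, adjusted p = 1.14e-04). Arc, an activity-induced gene whose mRNA is carried into dendrites, read 9.60, 9.69 and 9.89 on the dendritic and 8.94, 9.35 and 10.01 on the cell body arrays, which overlap (difference 0.29, adjusted p = 0.339). Bdnf fell by 0.32. These early genes had wide spreads, and single arrays decided some calls. Nr4a1 was not called without dendritic array 1 or 2, cell body array 2 or 3, or either number 1 or 2 (adjusted p of 0.0621 to 0.15), and Bdnf not without cell body array 1 or 2 or either of those numbers (0.0523 to 0.132). Egr1 was not called without the arrays numbered 1 (0.0622) and Npas4 not without those numbered 2 (0.0965), while Arc was called higher without cell body array 3 (0.0233).

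The full cyclic AMP response element, TGACGTCA, was searched on both strands of the 250 bases before and 50 after each start. It was in the promoters of 3 of 27 activity-regulated genes with an entry, in 2.5% of the tested genes with an entry and in 1.79% of the RefSeq promoters of the table. The 3 windows of 30 bases (RefSeq, GRCm38.p6, the gene's own strand, element in capitals) show that it stands upstream of the start in each.
Plk2, chr13:110394971-110395000: agcgctcgccgTGACGTCAcgaggccccgc
Dusp1, chr17:26508597-26508626: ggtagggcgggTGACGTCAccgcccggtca
Btg2, chr1:134079303-134079332: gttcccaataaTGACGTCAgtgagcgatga
Of these genes Plk2 was called lower, Dusp1 differed by 0.22 (adjusted p = 0.474) and Btg2 by 0.0030 (adjusted p = 0.992). Of the 449 tested genes with the element 20.0% were called higher and 30.3% lower, and of the 17521 without it 25.0% and 19.1%.

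Transcription factors of forebrain neurons were called higher in 11 of 28 (39.3%, against 23.9% of all genes) and lower in 11 (39.3%, against 17.2%). Their median of 0.03 keeps its sign, among the 5 scalings, only after quantile normalization, and is -0.051 without dendritic array 3. Beside Rorb, its relative Rora rose by 1.45 (adjusted p = 3.75e-05, and 0.187 on its feature of lowest mean), Nfia, a factor of astrocytes and neurons, by 0.91, and Bcl11a read 7.10, 7.07 and 7.25 against 8.61, 8.71 and 8.60 and fell by 1.5 (adjusted p = 6.57e-06). Lmo3 fell by 1.17. Of 40 chromatin regulators 11 were called higher (27.5%, near the 23.9% of all genes) and 15 lower (37.5%, against 17.2%). Their median of -0.01 is 0.09 after quantile normalization, 0.011 without dendritic array 3 and 0.018 without cell body array 1. Chd3, a remodeller of the NuRD complex, rose by 1.01 and Ezh2, a histone methyltransferase, by 0.80, while Kdm5b fell by 0.91 and Chd8 by 0.74.

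Of 9 long non-coding RNAs measured by a single-symbol feature 5 were called lower (55.6%, against 17.2% of all genes). Another 2 were called higher (22.2%, near the 23.9% of all genes), and the median was -0.62. Snhg11 read 7.49, 7.60 and 7.75 in the dendritic and 8.76, 8.60 and 8.86 in the cell body layer and fell by 1.13 (adjusted p = 7.20e-05). Kcnq1ot1, the imprinted antisense transcript of Kcnq1, fell by 0.98 and Miat by 0.79. Neat1, which builds nuclear paraspeckles, read 7.39, 7.38 and 7.31 against 6.57, 6.47 and 6.53 and rose by 0.84 (adjusted p = 5.59e-05), and Malat1, another abundant nuclear RNA, differed by -0.10 (adjusted p = 0.398; 0.025 after quantile normalization).

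Energy genes gave a mixed picture. Nuclear genes of the respiratory chain and ATP synthase were called lower in 16 of 71 (22.5%, against 17.2% of all genes). They were called higher in 9 (12.7%, against 23.9%), with 46 not called. Their share of calls in either direction lay below that of all genes (41.1%), and their median of -0.05 is 0.02 after quantile normalization. Cytochrome oxidase subunits Cox6a1 and Cox8a rose by 0.72 and 0.60, and Uqcrc2 of complex III and Sdhb of complex II each fell by 0.59. Of 6 mitochondrial DNA genes with a single-symbol feature 4 were called higher (66.7%, against 23.9% of all genes). Their median of 0.54 is -0.06 with equal hybridization controls. ND2 read 12.48, 12.80 and 12.72 on the dendritic and 11.55, 11.78 and 11.50 on the cell body arrays and rose by 1.06 (SE 0.11, adjusted p = 1.78e-04). COX2 rose by 1.25 and ND3 by 0.67.

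Cholesterol synthesis genes were called higher in 9 of 17 (52.9%, against 23.9% of all genes) and lower in 1 (5.88%, against 17.2%). Their median of 0.31 is -0.29 with equal hybridization controls. Insig1, the sterol sensor that retains SREBP, read 8.99, 8.93 and 9.08 against 7.92, 8.02 and 8.0 and rose by 1.02 (adjusted p = 2.92e-05), and the lanosterol demethylase Cyp51 rose by 0.76. Lysosome and autophagy genes were called higher in 11 of 30 (36.7%, against 23.9% of all genes) and lower in 10 (33.3%, against 17.2%). Their median of 0.08 is negative under 3 of the 5 scalings (equal external, background or hybridization controls). Npc2, a cholesterol carrier of the lysosome, read 8.75, 8.69 and 8.74 against 7.25, 7.36 and 7.15 and rose by 1.47 (adjusted p = 6.66e-06). Lamp2 rose by 0.84 and progranulin (Grn) by 0.77, while Gabarapl1, an autophagosome protein, fell by 1.01 and the proton pump subunit Atp6v1a by 0.66.

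Secretory and glycosylation genes were called lower in 21 of 57 (36.8%, against 17.2% of all genes) and higher in 13 (22.8%, near the 23.9% of all genes), with a median of -0.16. Ndst3 and Ext1, a pair of heparan sulfate enzymes, fell, Ndst3 from 8.40, 8.73 and 8.57 to 7.03, 6.97 and 7.02 (fall of 1.56, adjusted p = 1.11e-05) and Ext1 by 1.25. The sialyltransferases St3gal4 and St6gal1 rose by 1.22 and 0.98, while St8sia3 and St3gal5 fell by 0.95 and 0.69.

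Interneuron markers were called higher in 13 of 19 (68.4%, against 23.9% of all genes) and lower in 4 (21.1%, against 17.2%). Their mean levels were 8.50 to 8.80 on the dendritic and 7.75 to 7.84 on the cell body arrays. Sst, somatostatin, read 10.73, 10.68 and 10.94 in the dendritic and 9.09, 9.15 and 8.79 in the cell body layer (rise of 1.77, SE 0.12, adjusted p = 1.64e-05). Gad2, a GABA-synthesizing enzyme, rose by 1.65, the vesicular GABA transporter Slc32a1 by 1.20, Npy by 1.85 and Reln by 1.71. Cck fell by 0.88, from 10.68, 10.51 and 10.60 to 9.79, 9.59 and 9.77, and Pvalb, the marker of basket cells around pyramidal somata, by 0.57.

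Markers of neighbouring fields were read in the same way. Of 15 CA2 markers 8 were called higher (53.3%, against 23.9% of all genes) and 2 lower (13.3%, against 17.2%). Their median of 0.22 is -0.38 with equal hybridization controls, and Amigo2 itself differed by 0.13 (adjusted p = 0.276). Pcp4, a calmodulin regulator, read 11.14, 11.07 and 11.46 in the dendritic and 9.70, 8.70 and 8.63 in the cell body layer and rose by 2.21 (SE 0.27, adjusted p = 3.42e-04). Adcy5 rose by 1.44 and Necab2 by 1.09, while Rgs14 fell by 0.88. Among 9 CA3 markers 4 were called higher (44.4%, against 23.9% of all genes) and 1 lower (11.1%, against 17.2%), among them Cpne4 (rise of 1.42). Among 9 dentate markers 5 were higher (55.6%, against 23.9% of all genes) and 1 lower (11.1%, against 17.2%), among them Dock10 (rise of 1.78) and Lct (fall of 1.5). Both of these medians, 0.30 and 0.26, turn negative with equal hybridization controls. Of 9 ependymal and choroid plexus markers 2 were called higher (22.2%, near the 23.9% of all genes) and 1 lower (11.1%, against 17.2%). Their median of 0.23 is -0.36 with equal hybridization controls. Rarres2 rose by 1.16 and Ttr by 1.95 (dendritic values 8.96, 10.17 and 8.88, cell body values 7.90, 7.10 and 7.17, adjusted p = 0.00288, and 0.109 in the fit of all 12 arrays), and Kl fell by 1.36. Red blood cell markers were called higher in 1 of 3 (33.3%, against 23.9% of all genes). Their median of 0.17 is -0.02 with equal background and -0.43 with equal hybridization controls. Oocyte markers were called higher in 5 of 12 (41.7%, against 23.9% of all genes), and their median of 0.19 is -0.40 with equal hybridization controls. The oocyte markers had mean levels of 5.70 to 5.81 on the dendritic and 5.49 to 5.53 on the cell body arrays.

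Small nucleolar RNAs, which guide modification of other RNAs in the nucleus, held a compact group of falls. Of 955 snoRNA genes 226 were called lower (23.7%, against 17.2% of all genes) and 99 higher (10.4%, against 23.9%). The 170 that lie within the RefSeq span of Snhg14 on chromosome 7, the host transcript of the imprinted Prader-Willi region, were all called lower. Of them, 168 were called at least 2-fold lower, against 2.83% of all genes. Their differences had a median of -1.90 and a range of -2.70 to -0.71. Their median level was 7.68, 7.96 and 8.37 on the dendritic arrays and 9.98, 10.22 and 9.96 on the cell body arrays. No member's layers overlapped (20.4% of all genes were apart in this direction). Many members are copies of one another: the 170 genes gave 78 distinct sets of values, so they are not 170 separate measurements. The host transcript Snhg14 read 7.90, 8.31 and 8.40 against 8.92, 9.11 and 9.13 and fell by 0.85 (adjusted p = 0.00148), and Ube3a, the gene it silences on the paternal allele, fell by 0.74.

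These 168 made up part of the 853 falls of at least 2-fold, of which 685 were left without them. The other 785 snoRNA genes had a median of 0.13, with 99 called higher (12.6%, against 23.9% of all genes) and 56 lower (7.13%, against 17.2%). The 3 measured snoRNA genes within the span of Rian, a maternally expressed transcript on chromosome 12, were also called lower, against 17.2% of all genes. Gm24564 fell by 2.03, AF357426 fell by 2.28 and DQ267102 fell by 2.19. Single snoRNAs outside these groups went both ways, with Snord89 lower by 2.70 and Snord35b, Snord42a and Snord4a higher by 2.63, 1.71 and 1.56. This group and the microRNA group below were chosen after their values were seen.

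MicroRNA genes were called in a smaller share than all genes. A total of 420 features matched a RefSeq hairpin on the same chromosome, of which 71 were called higher (16.9%, against 23.9% of all genes) and 36 lower (8.57%, against 17.2%). At least 2-fold were 2 of the rises (3.32% of all genes rose this far) and 15 of the falls (2.83% of all genes fell this far). Of the 28 within 100 kb of Mir379 on chromosome 12, 11 were called lower (39.3%, against 17.2% of all genes). In this group 1, Mir494, was called higher (3.57%, against 23.9%), and the median was -0.37. The 392 others had a median of 0.17, with 70 higher (17.9%) and 25 lower (6.38%). Of these 392, 2 were called at least 2-fold higher, Mir196a-2 (1.37) and Mir692-1 (1.34). Another 8 were called at least 2-fold lower, most of all Mir421 (-2.71). The features lie on hairpin loci and do not separate mature from precursor RNA. Of the 11 called lower, 6 had a dendritic mean below that of the background features (4.65 on the dendritic and 4.47 on the cell body arrays), Mir379, Mir376b and Mir495 among them, and no fold is given for these. Mature sequences follow for 3 members of the group that fell at least 2-fold with a dendritic mean above the background features, and for hairpins of a pair of microRNAs known from neurons that fell outside it (RefSeq, GRCm38.p6, seed bases 2 to 8 in capitals).
mmu-miR-654-3p: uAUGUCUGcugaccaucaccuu
mmu-miR-453: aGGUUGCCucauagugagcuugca
mmu-miR-154-5p: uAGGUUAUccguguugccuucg
mmu-miR-138-5p: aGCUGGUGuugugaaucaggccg
mmu-miR-128-3p: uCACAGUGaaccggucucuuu
Mir654 read 5.79, 5.20 and 5.83 on the dendritic and 8.19, 7.10 and 8.0 on the cell body arrays and fell by 2.16 (adjusted p = 5.61e-04). Mir453 read 6.98, 7.05 and 6.97 on the dendritic and 8.56, 8.42 and 8.78 on the cell body arrays, well clear of the background features, and fell by 1.59 (adjusted p = 1.38e-05). Mir154 read 5.40, 4.85 and 5.86 on the dendritic and 6.84, 7.01 and 7.25 on the cell body arrays and fell by 1.66. In these 3 the layers did not overlap. Mir138-2, a hairpin of the spine-regulating miR-138, read 6.64, 6.03 and 6.23 on the dendritic and 7.87, 7.84 and 7.92 on the cell body arrays and fell by 1.58 (SE 0.14, adjusted p = 8.26e-05). Mir128-1, which lies in an intron of R3hdm1 and encodes neuronal miR-128, read 6.92, 6.16 and 8.77 on the dendritic and 9.52, 9.36 and 9.51 on the cell body arrays and fell by 2.18 with a wide spread between the dendritic arrays (SE 0.55, adjusted p = 0.0146; 0.126 without the arrays numbered 1 and 0.0763 without those numbered 2).

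**Figure D5:**
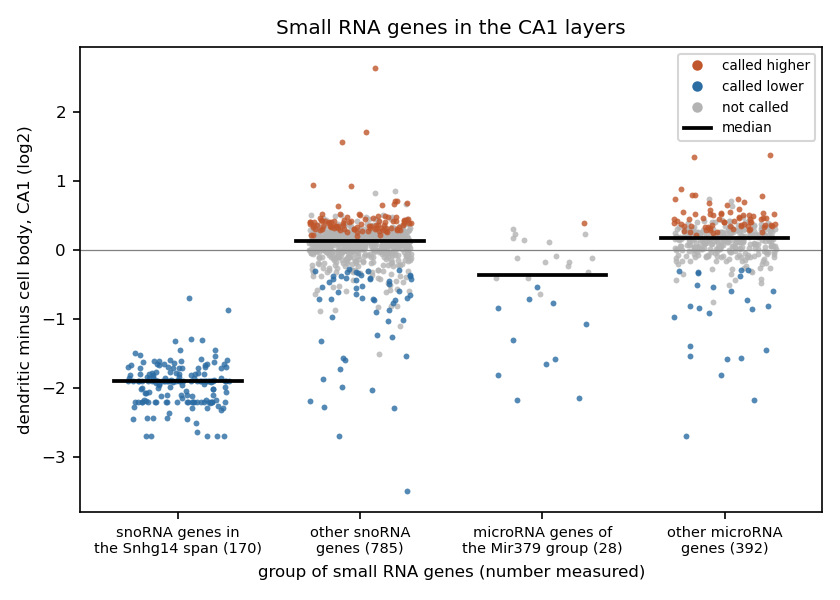
Each point is a small RNA gene, placed by its layer difference (log2) within 4 groups, with red for called higher, blue for called lower, grey for not called and a black bar for the median; sideways placement within a group only separates the points. The snoRNA genes of the Snhg14 span lie below the zero line, with a median of -1.90. The microRNA genes of the Mir379 group have a median of -0.37. The snoRNA and microRNA genes outside these groups centre just above the line, at 0.13 and 0.17.

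The CA2 arrays, which carry another run number, gave the same layer contrast in the neighbouring field, and the difference between the contrasts was tested for the 10 largest rises and 10 largest falls of CA1 (limma, adjusted over all genes; 14.6% of all genes passed). Aldh1a1 rose by 3.13 in CA1 and by 1.81 in CA2, a difference between fields of -1.32 (adjusted p = 1.63e-05). Rorb rose by 2.08 in CA2, which differed by -0.94 (adjusted p = 0.00596), and Ndnf rose more there (4.65, adjusted p of the difference = 0.0273). Among the falls Iqgap2 fell by 1.72 and Plk2 by 1.82 in CA2, less than in CA1 (adjusted p = 0.00281 and 0.0384). Of the 20 genes 8 passed the test. They were chosen for the size of their CA1 difference, which is a term of the difference tested, and that choice favours smaller differences in CA2; 6 of the 8 were smaller there and 2 larger. With single arrays left out Aldh1a1, Rorb and Iqgap2 stayed past the threshold each time, while Ndnf, Prex2, Tafa1, Plk2 and Cdc40 did not. Rasd1 passed without any 1 of the CA1 dendritic arrays (adjusted p of 0.03 to 0.0394) and Ryr3 without the first of them (0.019). With the array number as a block Plk2 and Cdc40 did not pass (adjusted p = 0.0636 and 0.0669). The count of all genes passing was 4387, and it became 6991 without CA1 dendritic array 3, 2621 without CA1 cell body array 2 and 2648 without CA2 cell body array 2. Transcripts of oocyte genes stood out on 3 of the 6 CA2 arrays (mean of 7.39 to 7.52 against at most 5.87 elsewhere); without these arrays 4.32% of all genes passed, and of the 20 only Aldh1a1 (adjusted p = 0.00211), Rorb (0.046), Iqgap2 (0.0396) and Cdc40 (0.0494) did. The CA1 and CA2 contrasts share no arrays, but their controls differed: on the CA2 dendritic arrays the hybridization controls read 0.41 higher than on the CA2 cell body arrays, where CA1 had 0.60, the poly-A controls 0.87 higher, where CA1 had 2.82 lower, and the antigenomic and external controls 0.03 lower each, where CA1 had 0.19 and 0.11 higher. The part of these in the differences between fields was not tested.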

How the data were processed

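RNA of 12 laser-captured samples was amplified with the WT-Ovation Pico kit, per the labels' protocols, and hybridized to Affymetrix mouse arrays, 1 per sample. The deposited values are log2 expression; RMA is named in the submitters' processing notes, with its version not given in the sources used here. The table holds 72688 features, of which 6732 are controls. The platform annotation listed 32750, with 1 symbol for 30604, several for 2146 and none without a symbol; 39938 features were unnamed here. Entrez numbers matched RefSeq (GRCm38.p6) for 22818 and updated 827 symbols. The feature with the highest mean over the 12 arrays stood for each of 30142 genes. Features of several symbols were left out. The 6 CA1 arrays were fitted with limma 3.58.1 in R 4.3.3 (lmFit, eBayes, two-sided, Benjamini-Hochberg over all genes), with no block and no filter, on the deposited scale; the interaction used all 12 arrays. Depth has no counterpart on arrays, and 3 per layer limit the precision. The fit was tested on simulated data with known differences. It called 34 of 67 differences of 0.5, 57 of 67 of 1 and 65 of 66 of 2, beside 22 false calls. No other simulated gene was given a difference, while 41.1% of genes were called in the data, and no shift between layers was simulated. These rates therefore need not hold for the real arrays.

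Genes were named if called, not overlapping and outside the marker lists and name classes left out (predicted genes, small RNAs, chemosensory receptors): the 15 largest rises and falls, the 5 of each among genes with a mean of at least 8.14, and per list up to 4 members of smallest p and up to 2 of the opposite direction; Gfap, Neurod6, Camk2a, Map2 and Ddn were added. Members and lists were chosen with earlier results of these data known. Promoters and mature microRNAs were read from RefSeq tables, and 17970 of the genes had a promoter entry. The alternatives were the replicate block, a fit of all 12 arrays, array weights, a trended and robust prior, 5 scalings, a level filter, other features per gene, and arrays left out.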

Additional observations from a re-analysis of the deposited data

Results flagged for a closer look

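The layer difference of CA2 minus that of CA1 differed from 0 (limma interaction over 12 arrays, adjusted over all genes) in 8 of the 20 genes with the largest CA1 differences, and each is given here because it passed this test. The genes were chosen on the CA1 difference, which favours smaller differences in CA2. Aldh1a1 stood at -1.32 (adjusted p = 1.63e-05), Rorb at -0.94 (0.00596) and Prex2 at -0.35 (0.0292), so that their rises were smaller in CA2, while Ndnf stood at 1.16 (0.0273). Among the falls, Iqgap2 stood at 0.93 (0.00281), Plk2 at 0.79 (0.0384) and Cdc40 at 0.45 (0.0442), which are smaller falls in CA2, and Tafa1 at -0.57 (0.0283). With the replicate block Plk2 and Cdc40 did not pass (0.0636 and 0.0669). Without the 3 CA2 arrays that carry oocyte transcripts, Aldh1a1, Rorb, Iqgap2 and Cdc40 passed (0.00211, 0.046, 0.0396 and 0.0494), and Ndnf, Prex2, Tafa1 and Plk2 did not (0.177, 0.203, 0.12 and 0.206). The fields were run under different numbers. Each layer contrast lies within a run, but the layer difference of the controls was not the same in the runs. The poly-A controls read 2.82 lower on the dendritic arrays in CA1 and 0.87 higher in CA2. Run and field therefore cannot be told apart, in a level or in the difference between the contrasts.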

How the results depend on the processing

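Whether the numbers 1 to 3 pair the arrays was not settled. Deviations of same-numbered arrays correlated at 0.13, 0.086 and -0.030, and those of differently numbered arrays at -0.13 to 0.051. With the replicate block 11673 genes were called (56.9% higher) and 3504 genes passed the interaction test, in which Plk2 (adjusted p = 0.0636) and Cdc40 (0.0669) were lost; it ended no call of the 238 named genes called in CA1. The share of calls that were higher, 58.2%, was 61.4% with all 12 arrays, 60.5% with these and the block, 56.7% with a trended and robust prior, 51.3% above the median level, 55.3% after quantile normalization, 50.8% after median centring, and 40.4%, 29.6% and 5.31% with equal external, background and hybridization controls. The last also gave 25432 calls and 4225 of at least 2-fold. Leaving out arrays gave 8136 to 13878 calls, 1799 to 1996 of at least 2-fold and 53.8% to 61.9% higher. In the interaction 2621 to 6991 genes passed with single arrays left out, and 1303 without the 3 oocyte arrays. The snoRNA genes of the Snhg14 span and single-array interaction fits were alternatives added after seeing the data. Every one of the 30 largest differences and 231 of the 238 named calls kept call and direction in all 9 fits with arrays left out. All of these were called on the same arrays, which favours that outcome, so these fits are no independent check.

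Signs turned in few named genes, all but 3 of them not called on the deposited scale. Equal hybridization controls gave Rpl38 -0.009, Rps10 -0.042, Rps18 -0.262, Amigo2 -0.462, Arc -0.302, Btg2 -0.592, Dusp1 -0.372, Eif2s3x -0.526 and Kif5c -0.566, with Rps18, Amigo2, Btg2, Eif2s3x and Kif5c past the threshold. Equal background controls gave Amigo2 -0.053, Btg2 -0.183, Eif2s3x -0.117 and Kif5c -0.157, equal external controls Btg2 -0.107, Eif2s3x -0.04 and Kif5c -0.080, median centring Btg2 -0.042 and Kif5c -0.015, quantile normalization Btg2 -0.032 and Kif5b 0.128, and array weights Btg2 -0.039. With arrays left out Btg2 ran from -0.177 to 0.225, Dusp1 from -0.073 to 0.430 and Eif2s3x from -0.005 to 0.175. In the interaction, without the oocyte arrays Scrg1 was 0.065, Igfbp5 -0.097 and Mgp 0.130; with single arrays left out Ly6c2 ran from -0.182 to 0.047, Scd1 from -0.370 to 0.035, Scrg1 from -0.167 to 0.012, Igfbp5 from -0.060 to 0.155, Mgp from -0.715 to 0.075 and Slc7a11 from -0.052 to 0.253. The cause was not tested. Levels near the background features limit dim genes.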
